A study of Mus musculus with 14 samples.

Results

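Homeostatic microglia genes are transcripts that microglia, the resident macrophages of the brain, carry while they survey healthy tissue. This account follows 9 of them, P2ry12, P2ry13, Gpr34, Cx3cr1, Csf1r, Siglech, Tmem119, Aif1 and Sall1, taken by gene name from count tables of the mouse dorsal hippocampus. Each was listed in both tables, 9 of 26570 genes in the table of untrained (basal) mice and 9 of 25933 genes in the table of the learning experiment. The study asked how the hippocampal transcriptome of THY-Tau22 mice, a model of tauopathy, differs from that of wild-type mice, at rest and after spatial learning, and whether an activator of the CBP and p300 acetyltransferases shifts it. All mice were male, on the C57BL6 strain and 8 months old.

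The basal groups were untrained WT mice (basal WT, n = 3) and untrained THY-Tau22 mice (basal THY-Tau22, n = 2). In the learning experiment, WT VEH (n = 2) were WT mice that received saline and were trained to find a hidden platform in the Morris water maze, and WT VEH_HC (n = 3) were WT mice given the same vehicle but left in their home cage. TAU VEH (n = 2) were trained THY-Tau22 mice that received CSP, glucose-derived carbon nanospheres without a drug, and TAU MOL (n = 2) were trained THY-Tau22 mice that received CSP-TTK21, the same nanospheres carrying the acetyltransferase activator TTK21. TAU VEH and WT VEH therefore differed in the injected vehicle as well as in genotype, and these cannot be told apart. The transgene is a mutated human tau driven by a Thy1 promoter, which is active in neurons and not in microglia. Per the methods, 3 further libraries of the learning experiment, from mice of a single litter, were left out by the authors after their data had been seen.

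Microglia arise from yolk sac progenitors and depend on signalling through CSF1R, the receptor of the cytokines CSF1 and IL-34, which in the brain come largely from glia and neurons. They sense tissue damage through purinergic receptors such as P2RY12, and neuronal fractalkine (Cx3cl1) through CX3CR1. The transcription factor SALL1 and signalling by TGF-beta maintain this resting identity, and in damaged or plaque-bearing tissue microglia are known to lower many of these transcripts while raising genes such as Itgax, Clec7a and Lpl. In bulk tissue, fewer microglia and less RNA of a gene per microglial cell cannot be told apart.

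The loci are given on mouse build mm9 with the GENCODE M1 annotation. P2ry12 (chr3:59020193-59066753, minus strand) and P2ry13 (chr3:59011818-59014804, minus strand) are neighbours that lie within the span of Med12l on the opposite strand, with which they share 0 exon bases. Gpr34 (chrX:13209215-13217984, plus strand) lies within Cask, again with 0 shared exon bases. Siglech (chr7:63023548-63034295, plus strand), Cx3cr1 (chr9:119957811-119977400, minus strand), Tmem119 (chr5:114243738-114250525, minus strand), Aif1 (chr17:35307936-35313013, minus strand) and Sall1 (chr8:91551147-91568061, minus strand) overlap no other annotated gene. Csf1r shares 871 exon bases with Hmgxb3 on the other strand. The libraries did not keep strand, so reads of Csf1r and Hmgxb3 cannot be told apart over those bases.

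The 150 bases before the annotated start are shown for the members whose values the comparisons turn on. They are P2ry12, Gpr34 and Siglech, which varied together over the libraries, Tmem119, which differed between trained groups, and P2ry13, whose stretch alone holds the searched motif. Capitals mark the core GAGGAA, letters bound by PU.1, the factor that defines the myeloid lineage.
P2ry12, chr3:59066754-59066903, minus strand: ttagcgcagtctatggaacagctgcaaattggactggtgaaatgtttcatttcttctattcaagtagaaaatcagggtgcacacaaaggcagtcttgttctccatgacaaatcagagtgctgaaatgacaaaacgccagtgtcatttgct
Gpr34, chrX:13209065-13209214, plus strand: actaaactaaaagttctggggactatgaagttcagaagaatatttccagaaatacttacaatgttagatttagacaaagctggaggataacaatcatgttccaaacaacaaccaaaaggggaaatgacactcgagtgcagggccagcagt
Siglech, chr7:63023398-63023547, plus strand: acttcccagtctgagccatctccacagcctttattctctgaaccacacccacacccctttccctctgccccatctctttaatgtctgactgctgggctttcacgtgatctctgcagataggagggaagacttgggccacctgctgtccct
Tmem119, chr5:114250526-114250675, minus strand: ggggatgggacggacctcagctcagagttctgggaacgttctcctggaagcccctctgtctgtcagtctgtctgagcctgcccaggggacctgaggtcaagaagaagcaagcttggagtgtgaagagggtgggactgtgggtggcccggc
P2ry13, chr3:59014805-59014954, minus strand: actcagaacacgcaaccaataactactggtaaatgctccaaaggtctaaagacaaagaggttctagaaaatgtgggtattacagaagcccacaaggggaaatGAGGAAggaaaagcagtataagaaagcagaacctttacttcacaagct

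On either strand of the 300 bases before the start, GAGGAA was found in 1 of the 9 genes, P2ry13, 48 to 43 bases before the start and on the strand of the gene, and in 27.1% of the 27400 genes searched. The longer form GAGGAAGT, which contains the core, was found in 2.57% of all genes and in 0 of 9, and the cAMP response element TGACGTCA, the palindrome bound by CREB, in 1.73% and in 0 of 9. The cAMP response element was searched because CREB recruits CBP and p300. A match is a description of the letters and not of binding.

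Libraries held 28639121 to 37681155 counts in the basal table and 24693713 to 52180305 in the learning table, and the 9 genes together took 0.0280% to 0.0362% of them. In a single library a member had between 109 counts (Aif1) and 7188 counts (Csf1r), so that counting error alone, as a relative Poisson standard deviation, was at most 9.58% for Aif1 and 1.57% for Csf1r. All 9 genes passed the filter on low counts in both tables. Levels are given as CPM, counts scaled to a library of a fixed size, with library sizes adjusted by the trimmed mean of M values. Microglial transcripts were present in every library, whereas monocyte and neutrophil markers were at or near 0 (9 listed genes, summed level 0.195 to 1.28 CPM over the 14 libraries, with Camp and Ngp at 0 counts in some of them). Markers of border macrophages, which share Csf1r, Cx3cr1 and Aif1 with microglia, summed to 23.7 to 36.6 CPM over 10 genes, most of it Stab1 (17.3 to 29.9 CPM), while each of the other 9 was at 2.73 CPM or less. A difference between libraries that bears on every comparison was the level of choroid plexus transcripts. The summed level of 14 choroid plexus markers was 2479 and 1596 CPM in the WT VEH libraries, 79.3 to 239 CPM in the home cage libraries, 785 and 718 CPM in TAU MOL, 239.8 and 284 CPM in TAU VEH, and 1321 CPM in the second basal THY-Tau22 library against 273 to 442 CPM in the other 4 basal libraries.

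Libraries also differed in how counts followed the GC content of the exons. Across all genes tested, Spearman's rho between GC content and a gene's departure from its mean over the libraries of its table was 0.08 and 0.28 in the WT VEH libraries, 0.41 to 0.46 in the home cage libraries, -0.62 and -0.41 with CSP (TAU VEH) and -0.40 and -0.47 with CSP-TTK21 (TAU MOL); these are descriptions across genes, which are not independent. The 9 genes span much of that range, from Gpr34 (37.1% GC) and P2ry12 (39.3%) through P2ry13 (44.7%), Siglech (45.7%), Cx3cr1 (49.6%), Sall1 (51.7%), Aif1 (53.4%) and Csf1r (54.3%) to Tmem119 (58.8%, the percentile 93.4 of listed genes).

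Compared per kilobase of exon, Csf1r had the highest level of the 9 genes in both experiments, at 25.2 to 30.4 CPM per kb in the basal libraries and 25.1 to 30.6 CPM per kb in the learning libraries, above every other member in every library. Tmem119 (11.9 to 17.5 CPM per kb), Cx3cr1 (11.1 to 16.8) and P2ry12 (11.7 to 14.2) followed in the basal libraries, with ranges that overlapped. In the learning libraries Cx3cr1 (15.4 to 19.4 CPM per kb) and Tmem119 (13.8 to 19.8) overlapped each other and lay above P2ry12 (5.80 to 11.2). Sall1 (5.59 to 6.98 CPM per kb) came next there and overlapped the lowest P2ry12 libraries. P2ry13, Siglech, Gpr34 and Aif1 followed in the learning libraries between 1.62 and 3.67 CPM per kb with overlapping ranges. In the basal libraries these 4 genes and Sall1 lay between 3.53 and 6.30 CPM per kb.

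**Figure D1:**
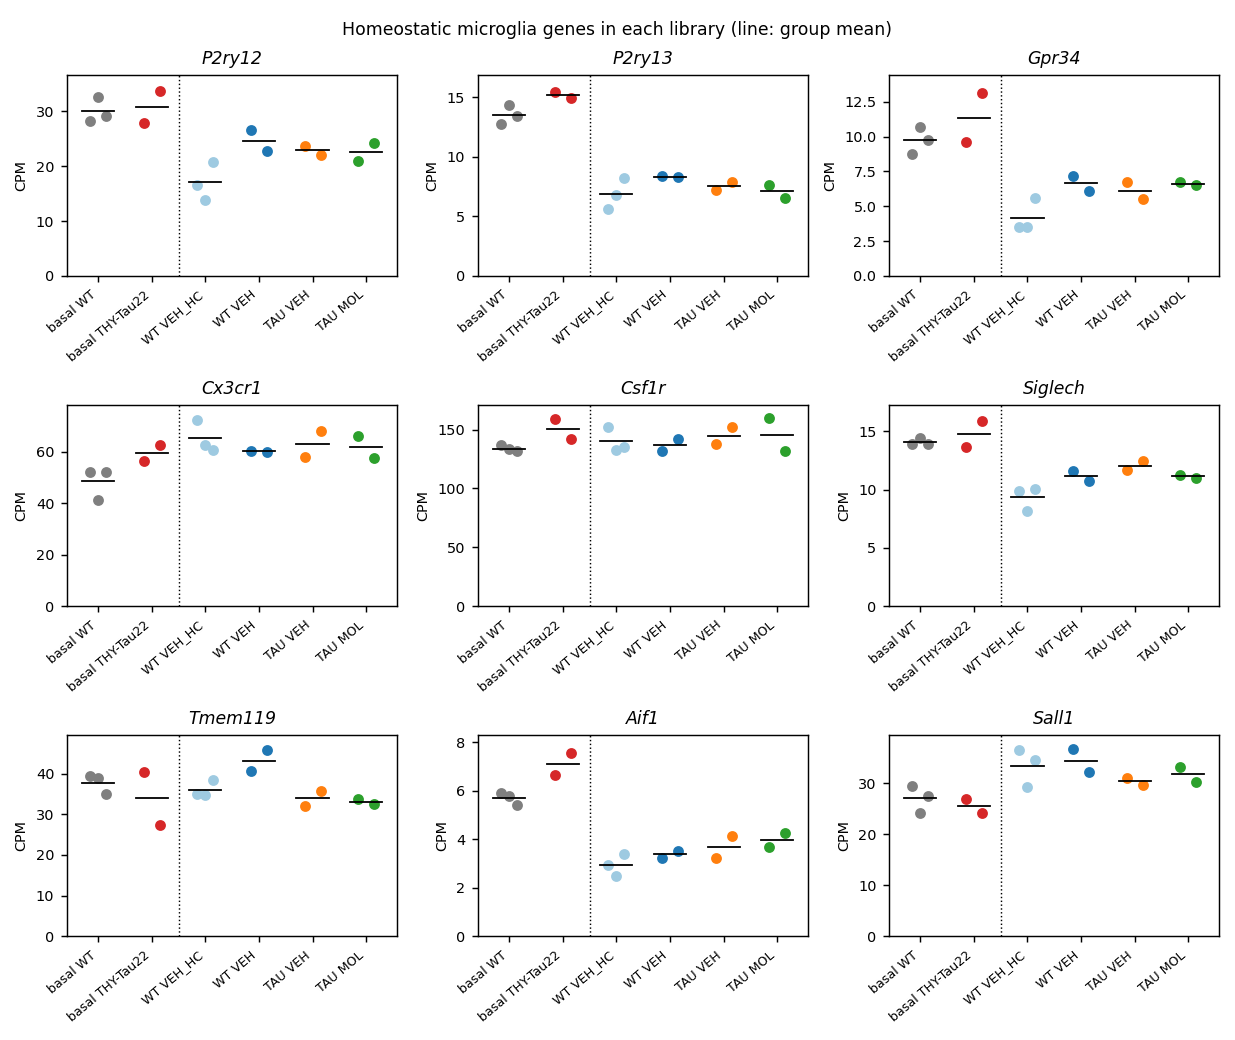
Level of each homeostatic microglia gene in CPM (vertical axis, from 0) in every library, by group (horizontal axis); points are libraries, lines are group means, and the dotted line separates the basal table from the learning table, which were scaled separately. Tmem119 was highest in the 2 WT VEH libraries of the learning experiment (40.7 and 45.8 CPM), and P2ry12 was lowest in the 3 WT VEH_HC libraries (13.8 to 20.8 CPM).

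The basal comparison asks whether untrained THY-Tau22 mice differed from untrained WT mice. None of the 9 genes passed the test, and no loss of homeostatic transcripts was detectable at this depth and number of mice. Fitted differences were positive for 7 of 9 genes, with a median log2 fold change of 0.17 against -0.01 over all 16324 genes tested. The lists closest to the members leaned the same way, with 0 called. Positive were 18 of 20 general myeloid genes (median 0.26) and 23 of 24 disease-associated microglia genes (0.24). So were 9 of 11 microglial transcription factor genes (0.12) and 15 of 25 further homeostatic microglia genes (0.08). Markers of other cell types differed in sign from list to list, with 0 called: 10 of 10 oligodendrocyte genes had negative log2 fold changes (median -0.46, summed level 7372 to 12182 CPM in basal WT and 6878 and 7160 CPM in basal THY-Tau22), and 10 of 10 endothelial genes (median 0.14) and 7 of 10 astrocyte genes (median 0.07) positive ones. The choroid plexus genes were positive in 13 of 14 (median 0.90, 10 at an unadjusted p under 0.05) and the blood genes negative in 5 of 5 (median -0.53, 3 at an unadjusted p under 0.05). The part of these lists in the members' values was not tested. A gene was called differentially expressed when the quasi-likelihood test of edgeR gave a Benjamini-Hochberg adjusted p under 0.05 together with an absolute log2 fold change above 0.2. By that rule 0.0245% of genes tested were called in this comparison (0.00613% higher, 0.0184% lower), and 0 of 9 members. At an unadjusted p under 0.05 edgeR gave 1 of the 9 genes and 803 of all 16324, and DESeq2 called 0 of 9 and 41 of all genes.

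Among the receptors, the fractalkine receptor gene Cx3cr1 measured 52.0, 41.4 and 52.0 CPM in basal WT and 56.5 and 62.8 CPM in basal THY-Tau22. Both THY-Tau22 libraries were thus above all WT libraries, but the log2 fold change of 0.30 (95% interval 0.00 to 0.60) had an edgeR adjusted p of 0.90. The growth factor receptor gene Csf1r, at 137, 133 and 132 CPM in basal WT and 159 and 142 CPM in basal THY-Tau22, likewise did not overlap (log2 fold change 0.17, interval -0.08 to 0.41). The ADP receptor gene P2ry13 measured 12.8, 14.3 and 13.4 CPM against 15.4 and 14.9 CPM (0.17, interval -0.10 to 0.44). Aif1, which encodes the actin-binding protein IBA1 used to stain microglia, measured 5.89, 5.78 and 5.40 CPM against 6.67 and 7.58 CPM (0.32, interval -0.03 to 0.68). These 4 genes are the members whose THY-Tau22 libraries all lay above the WT libraries, a pattern that 9.01% of all genes tested showed, and in 0 members did they all lie below, against 9.49%. The other 5 members overlapped between genotypes.

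In P2ry12, Siglech and Tmem119 the 2 basal THY-Tau22 libraries stood on opposite sides of the WT range. Tmem119, a membrane protein restricted to microglia in the brain, measured 40.4 CPM in the first and 27.4 CPM in the second library, with basal WT at 39.4, 38.8 and 35.0 CPM. P2ry12 measured 27.9 and 33.7 CPM, around WT values of 28.2, 32.7 and 29.1 CPM. Gpr34, a receptor of lysophosphatidylserine, measured 9.58 and 13.2 CPM against 8.75, 10.7 and 9.74 CPM, within the WT range and above it. The second library is the one with the high choroid plexus level, and its rho with GC content was -0.60 against 0.48 in the first. Without it the log2 fold change of Tmem119 was 0.10 in place of -0.15, that of Cx3cr1 0.22 and that of Aif1 0.23, and 0 members were called.

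The comparison of WT VEH with WT VEH_HC asks what spatial training changed in WT mice. P2ry12, the ADP receptor with which microglial processes find sites of damage, was higher after training and was the member called. The members of lowest GC content, P2ry12 and Gpr34, had the largest differences, Tmem119 and Siglech lay above the home cage libraries by less, and Csf1r and Sall1 were near 0. Over the 9 genes the log2 fold change had a median of 0.26, against -0.003 over 16820 genes tested. The call rule was met by 8.4% of all genes (5.35% higher, 3.05% lower) and by 1 of 9 members.

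P2ry12 measured 26.5 and 22.7 CPM in WT VEH and 16.7, 13.8 and 20.8 CPM in WT VEH_HC. The trained libraries were both above the home cage libraries (log2 fold change 0.53, SE 0.14, edgeR adjusted p = 0.0434). Gpr34 measured 7.18 and 6.09 CPM against 3.48, 3.48 and 5.57 CPM, also without overlap, at a log2 fold change of 0.67 (SE 0.19) that missed the threshold (edgeR adjusted p = 0.0544). Tmem119, at 40.7 and 45.8 CPM against 34.9, 34.7 and 38.3 CPM, missed it as well (0.26, SE 0.08, edgeR adjusted p = 0.0594). Siglech belongs to the family of sialic acid binding lectins, and its protein signals through the adaptor DAP12. It measured 11.6 and 10.8 CPM against 9.87, 8.16 and 10.1 CPM (0.26, SE 0.11, edgeR adjusted p = 0.145).

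P2ry13 completed the members without overlap in that direction, at 8.39 and 8.26 CPM against 5.62, 6.77 and 8.17 CPM (log2 fold change 0.28, SE 0.15). These 5 of 9 compare with 23.0% of all genes tested. Cx3cr1 lay the other way, with WT VEH at 60.5 and 59.9 CPM just below the home cage libraries at 72.3, 62.7 and 60.8 CPM (log2 fold change -0.12, SE 0.10); it was 1 of 9 against 20.8% of all genes. The remaining members overlapped. Csf1r was at 132 and 142 CPM against 152, 133 and 135 CPM, Aif1 at 3.24 and 3.52 CPM against 2.92, 2.48 and 3.40 CPM, and Sall1 at 36.7 and 32.3 CPM against 36.5, 29.4 and 34.6 CPM. The intervals of the difference were -0.24 to 0.17 for Csf1r and -0.17 to 0.26 for Sall1 on the log2 scale.

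The third home cage library had the highest P2ry12, P2ry13, Gpr34 and Tmem119 of its group and the highest choroid plexus level of its group (239 CPM). Without it, 3 members were called (P2ry12, Gpr34 and Tmem119). The second home cage library, with the lowest P2ry12 and the lowest summed level of the members, stood apart in other cell types: its oligodendrocyte genes summed to 3953 CPM against 6697 to 8710 CPM in the 8 other learning libraries, and its endothelial genes to 315 CPM against 156 to 219 CPM. Without it P2ry12 was at 0.39 (edgeR adjusted p = 0.0571) and 0 members were called. Of 10 oligodendrocyte genes 8 had positive log2 fold changes in this comparison (median 0.37, 0 called), while 2 of 10 astrocyte genes (Gjb6, 0.55, and S100b, 0.43) and 2 of 5 blood genes (Hbb-b2, 1.13, and Hbb-b1, 0.84) were called as higher. Their part in the P2ry12 result was not tested. The P2ry12 call was lost in all 8 other fits that left out a library (log2 fold change 0.39 to 0.64, edgeR adjusted p 0.0571 to 0.330), and in the fit of the 2 groups alone (adjusted p = 0.0875). Genes of the same GC content as P2ry12 were also above the home cage libraries, with a median log2 fold change of 0.20, and those around Gpr34 by 0.22. After correction for GC content and length P2ry12 was at 0.30 (edgeR adjusted p = 0.146) and Tmem119, whose neighbours in GC content had a median of -0.06, became the called member (0.28, adjusted p = 0.0338). All 14 choroid plexus markers were higher in WT VEH (median log2 fold change 3.71), and the choroid plexus level and training cannot be told apart. With a choroid plexus score in the model 0 of all 16820 genes tested were called, so that the members' count says nothing about them, and the signs of P2ry12 and Gpr34 turned, to -0.57 and -0.87 (edgeR adjusted p = 0.987 for each).

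**Figure D2:**
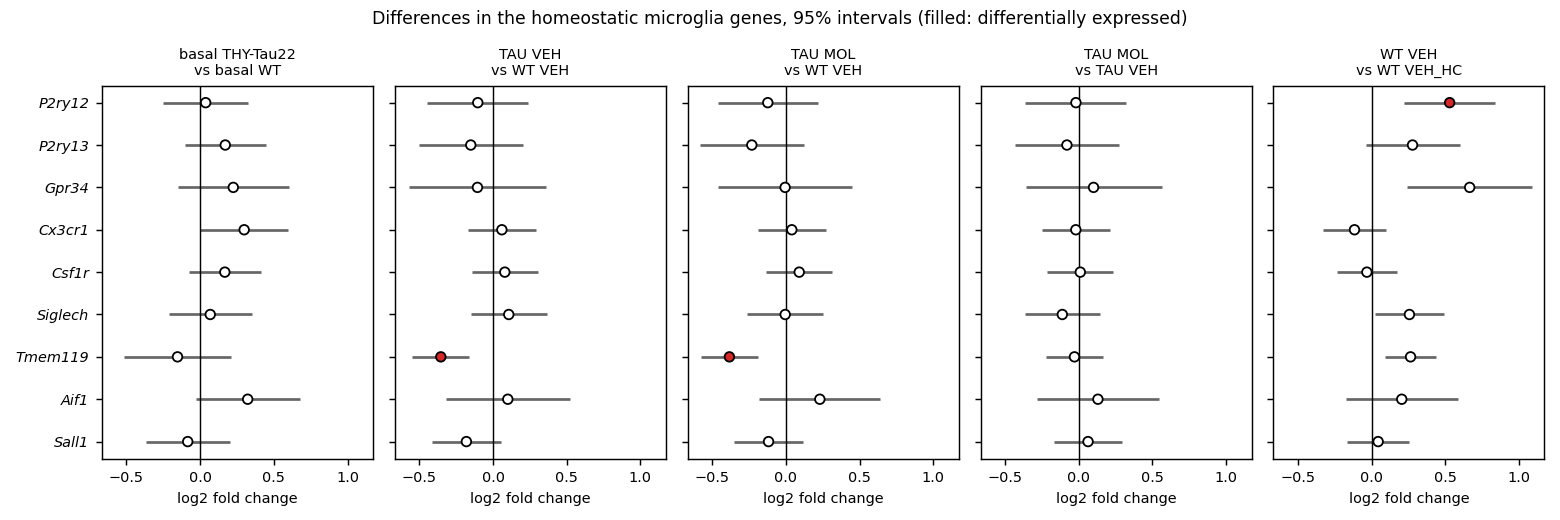
Log2 fold change (horizontal axis) of each gene (vertical axis) in the 5 comparisons, with 95% intervals from the edgeR quasi-likelihood fit; filled points met the call rule. Filled points are P2ry12 for WT VEH against WT VEH_HC (0.53) and Tmem119 for TAU VEH (-0.35) and TAU MOL (-0.38) against WT VEH.

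The comparisons of the trained THY-Tau22 groups with WT VEH ask what tauopathy changed during learning, with vehicle nanospheres and with CSP-TTK21. They share the WT VEH libraries, also with the training comparison, and are given side by side. In both, Tmem119 was the member called, and it was lower in THY-Tau22. Its level was 40.7 and 45.8 CPM in WT VEH, 33.6 and 32.6 CPM in TAU MOL, and 32.0 and 35.8 CPM in TAU VEH. The WT VEH libraries were above all 7 other libraries of the experiment, since WT VEH_HC was at 34.7 to 38.3 CPM and overlapped TAU VEH. The log2 fold change to WT VEH was -0.35 for TAU VEH (SE 0.09, edgeR adjusted p = 0.0199) and -0.38 for TAU MOL (SE 0.09, edgeR adjusted p = 0.0293). Tmem119 was 1 of 9 members called in each comparison, where 14.4% and 5.63% of all genes tested were called. The shares called as lower were 10.8% and 5.02%, and those called as higher 3.61% and 0.612%.

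Tmem119 is the member with the highest GC content. The 1901 genes within 2 percentage points of it had a median log2 fold change of -0.285 for TAU VEH and -0.210 for TAU MOL against WT VEH, so that Tmem119 differed from them by -0.07 and -0.17. After correction for GC content and length its log2 fold change was -0.05 (edgeR adjusted p = 0.757) in TAU VEH and -0.16 (adjusted p = 0.398) in TAU MOL. With library size alone in place of the trimmed mean, which moved the median of all genes to 0.15 and 0.12, Tmem119 was at -0.21 (adjusted p = 0.110) and -0.26 (adjusted p = 0.0863). The call was also lost without the second WT VEH library in both comparisons (-0.27 and -0.30), without the first TAU VEH library in TAU VEH (-0.28), and without the first WT VEH library or either TAU MOL library in TAU MOL (-0.46 to -0.36). The choroid plexus level was highest in WT VEH, with 14 of 14 markers called as lower in TAU VEH and 9 of 14 in TAU MOL, where the log2 fold changes of all 14 were negative, and it and genotype cannot be told apart; with a choroid plexus score in the model Tmem119 was at -0.21 (adjusted p = 0.637) and -0.31 (adjusted p = 0.273), in fits that called 0 and 2 of all 16820 genes. Endothelial genes also lay lower, with negative log2 fold changes for 9 of 10 in TAU VEH (2 at an unadjusted p under 0.05, 0 called) and 10 of 10 in TAU MOL (1 called), and 3 and 2 of 10 astrocyte genes were called as higher. Their part in the Tmem119 result was not tested.

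The other 8 members did not pass the test. In TAU VEH, P2ry13 (7.17 and 7.89 CPM against 8.39 and 8.26 CPM) and the transcription factor gene Sall1 (31.2 and 29.6 CPM against 36.7 and 32.3 CPM) lay below both WT VEH libraries. P2ry13 had lain above in the basal comparison, a pattern over the 2 experiments that 1.33% of the genes tested in both tables shared, with 1.26% showing its opposite. With Tmem119 they make 3 of 9, where 29.4% of all genes did so. Siglech (11.7 and 12.4 CPM against 11.6 and 10.8 CPM) lay above, as 28.5% of all genes did. The log2 fold changes were -0.15 (SE 0.16) for P2ry13, -0.18 (SE 0.11) for Sall1 and 0.11 (SE 0.12) for Siglech, with edgeR adjusted p of 0.618, 0.318 and 0.628. In TAU MOL, P2ry13 (7.61 and 6.56 CPM) again lay below WT VEH, so that with Tmem119 2 of 9 did, against 26.9% of all genes, and Aif1 (3.67 and 4.26 CPM against 3.24 and 3.52 CPM) lay above, against 25.6%.

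P2ry12 was close to WT VEH in both, at 23.7 and 22.1 CPM in TAU VEH and 21.0 and 24.3 CPM in TAU MOL, and its intervals were -0.45 to 0.24 and -0.46 to 0.22 on the log2 scale. Gpr34 measured 6.73 and 5.51 CPM in TAU VEH and 6.72 and 6.51 CPM in TAU MOL. Csf1r measured 137 and 152 CPM in TAU VEH and 160.0 and 131 CPM in TAU MOL, and Cx3cr1 57.8 and 68.0 CPM and 66.2 and 57.6 CPM. The range of each of these pairs overlapped that of WT VEH. The interval of the log2 difference to WT VEH was widest for Gpr34, at -0.57 to 0.36 in TAU VEH, and for Csf1r it was -0.14 to 0.30. The median over the 9 genes was -0.10 in TAU VEH and -0.01 in TAU MOL against 0.00 over all genes tested.

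TAU MOL against TAU VEH asks what the activator changed in trained THY-Tau22 mice. In this comparison 0 of 9 members were called, and the call rule was met by 0% of all genes tested. At an unadjusted p under 0.05 edgeR gave 0 members and 1064 of all 16820 genes, and DESeq2 called 0 members and 54 genes. Log2 fold changes of the members ran from -0.11 (Siglech) to 0.13 (Aif1), with a median of -0.02. The Siglech libraries of TAU MOL, at 11.2 and 11.0 CPM, both lay below the TAU VEH libraries at 11.7 and 12.4 CPM, as 17.4% of all genes did, and the other 8 members overlapped. The interval of the difference was -0.22 to 0.17 for Tmem119, -0.36 to 0.32 for P2ry12 and -0.21 to 0.23 for Csf1r. Differences within these bounds were not excluded with 2 libraries a group. The bounds are not a limit of detection, since 0 of all genes were called.

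**Figure D3:**
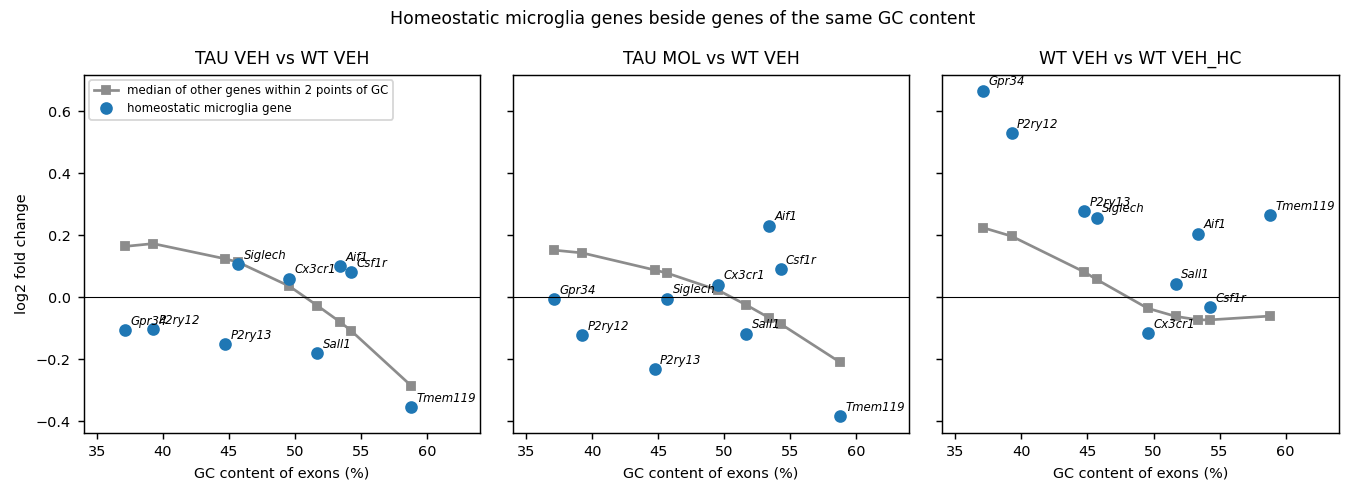
Log2 fold change (vertical axis) against exon GC content in percent (horizontal axis) for the 9 genes (circles) and the median of other genes within 2 percentage points of each (squares, joined by a line), in 3 comparisons. Tmem119 lies near the line in TAU VEH against WT VEH (-0.35 beside -0.285), and P2ry12 (0.53) and Gpr34 (0.67) lie above a line that is itself at 0.20 and 0.22 in WT VEH against WT VEH_HC.

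The members did not move as a block over the libraries. In the learning experiment P2ry12 followed Gpr34 (Pearson's r = 0.93 over 9 libraries) and Siglech (r = 0.87), and Gpr34 followed Siglech (r = 0.78), while Cx3cr1 followed Csf1r (r = 0.78) and ran against Gpr34 (r = -0.58). In the 5 basal libraries the same pairs gave r = 0.90 for P2ry12 and Gpr34, 0.89 for P2ry12 and Siglech, 0.94 for Gpr34 and Siglech, and 0.52 for Cx3cr1 and Csf1r. Of the 36 pairs 24 were positive in the learning libraries and 21 in the basal libraries. The points share library, depth and the GC profile of each library, and P2ry12, Gpr34 and Siglech are of low to middling GC content. The genes whose level was most like the mean profile of the 9 members over the 9 learning libraries, out of 12372 genes that averaged 100 or more normalized counts, were Tmem59, Psme2, Tmem111, Sept6, Naaa, Matn2, Hadh, 2210016F16Rik, Mr1 and Evi2a (r from 0.93 to 0.97). Over the 5 basal libraries the r of these 10 genes ran from -0.91 (Hadh) to 0.80 (Sept6), and 4 of the 10 were also among the 10 most alike when library size alone was used.

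The summed level of the 9 genes was 294 to 334 CPM in WT VEH_HC, 326 and 332 CPM in WT VEH, 343 and 305 CPM in TAU MOL, and 311 and 338 CPM in TAU VEH, with ranges that overlapped between WT VEH_HC and each other learning group. In the basal table it was 316 to 327 CPM in basal WT and 356 and 341 CPM in basal THY-Tau22, which did not overlap. Beside 20 general myeloid genes, which are transcribed in macrophages of all kinds, the members stood at 47.4 to 49.6 CPM per 100 CPM of general myeloid transcripts in basal WT and 46.8 and 47.8 in basal THY-Tau22. In the learning libraries this was 56.6 to 64.1 in the home cage group, 54.7 and 56.5 in WT VEH, 54.4 and 57.7 in TAU MOL, and 54.3 and 56.2 in TAU VEH. Of the 3 home cage libraries 2 were thus above all 6 trained libraries and the other was below 1 of them, and the ranges of the trained groups overlapped each other. Without Csf1r, the member with the highest counts, the 8 other genes summed to 195 and 189 CPM in WT VEH, above the 161 to 185 CPM of the 7 other learning libraries.

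**Figure D4:**
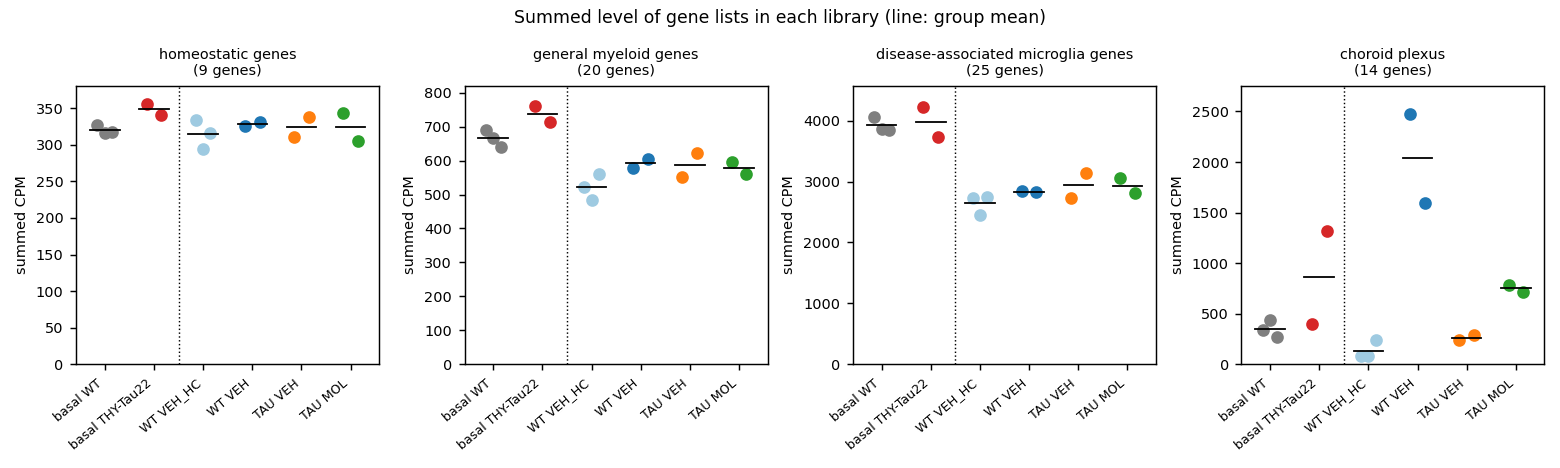
Summed level in CPM (vertical axis, from 0) of the 9 homeostatic genes, 20 general myeloid genes, 25 disease-associated microglia genes and 14 choroid plexus genes in each library, by group (horizontal axis); points are libraries and lines group means. The homeostatic sum stayed between 294 and 356 CPM, while the choroid plexus sum ran from 79.3 to 2479 CPM.

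Of the ligands, Cx3cl1, the neuronal fractalkine that binds CX3CR1, was lower in trained THY-Tau22 mice. Its level was 1086 ± 20.7 CPM in WT VEH, 776 ± 26.1 CPM in TAU VEH and 903 ± 29.6 CPM in TAU MOL (SD, n = 2 each). The log2 fold change was -0.48 (SE 0.06, edgeR adjusted p = 0.00114) in TAU VEH and -0.27 (SE 0.06, edgeR adjusted p = 0.0332) in TAU MOL, whereas its receptor gene Cx3cr1 was at 0.06 and 0.04. Of 10 listed neuron genes, 3 were called as lower in TAU VEH (Slc17a7, -0.63, Camk2a, -0.55, and Rbfox3, -0.33), against 10.8% of all genes. In TAU MOL 2 were called as lower (Slc17a7, -0.68, and Camk2a, -0.50), against 5.02%. In both comparisons 0 were called as higher. The summed level of the 10 genes, most of it Camk2a and Slc17a7, was 18467 and 18593 CPM in WT VEH, 13559 and 14415 CPM in TAU MOL, and 14416 and 14062 CPM in TAU VEH. By gene the list was mixed, with 6 of 10 log2 fold changes positive in TAU VEH (median 0.06) and 4 of 10 in TAU MOL (median -0.12). The part of these genes in the Cx3cl1 result was not tested. The Cx3cl1 values under the alternatives given for Tmem119 are not reported here. Over all genes, correction for GC content and length gave 506 calls in TAU VEH and 21 in TAU MOL, in place of 2423 and 947. With the choroid plexus score 2 genes were called in TAU MOL and 0 in TAU VEH, so Cx3cl1 was not called in TAU VEH there. The ligands of CSF1R were not called in either comparison. Csf1 measured 49.4 ± 2.32 CPM in WT VEH, 45.5 ± 1.94 CPM in TAU VEH and 46.0 ± 3.00 CPM in TAU MOL, and Il34 59.8 ± 7.88, 55.9 ± 2.02 and 46.6 ± 4.06 CPM in that order (SD, n = 2 each). In the basal, training and TAU MOL against TAU VEH comparisons 0 of 3 ligands were called by edgeR.

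Other lists were read against the share of all genes called. That was 3.61% higher and 10.8% lower in TAU VEH, 0.612% and 5.02% in TAU MOL, and 5.35% and 3.05% after training. The calls below are those of the main fit. Over all genes, correction for GC content and length gave 506, 21 and 744 calls in that order, in place of 2423, 947 and 1413. With the choroid plexus score 0, 2 and 0 genes were called. Of 25 further homeostatic microglia genes, 2 were higher and 3 lower when TAU VEH was set against WT VEH, with a median log2 fold change of 0.08. The protein S gene Pros1 (0.53) and Golm1 (0.39) were higher and Crybb1 (-0.66) was lower, each with an edgeR adjusted p of at most 0.0176. In TAU MOL 0 of the 25 were called. After training the cystatin C gene Cst3 (0.49) was among 2 that were higher, and 0 were lower. Cst3 averaged 1043 CPM in WT VEH, and the part of other cell types, the choroid plexus among them, in its level was not tested. Among 11 microglial transcription factor genes, Irf8, which drives macrophage development, was higher in TAU VEH (0.56, edgeR adjusted p = 0.0110) and in TAU MOL (0.48, edgeR adjusted p = 0.0444) than in WT VEH. Mef2a was higher (0.27) and Bhlhe41 lower (-0.26) in TAU VEH; Mef2a is also transcribed in neurons.

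Of 14 genes of TGF-beta signalling, which maintains the homeostatic state, the integrin subunit gene Itgav was higher in TAU VEH (0.31) and TAU MOL (0.34), and the receptor gene Tgfbr1 was higher in TAU VEH (0.29) and after training in WT mice (0.44), where Smad3 was lower (-0.44); many cell types carry these transcripts. Disease-associated microglia genes were called as higher in 5 of 25 in TAU VEH, 3 of 25 in TAU MOL and 3 of 25 after training. Over all genes tested the shares called as higher were 3.61%, 0.612% and 5.35%. As lower, 0 of the list were called. The lysozyme gene Lyz2 was at log2 fold changes of 1.22 in TAU VEH and 1.12 in TAU MOL. The lipoprotein lipase gene Lpl was at 0.35 in TAU VEH and at -0.13, not called, in TAU MOL. Clec7a (2.78 and 2.18) and Itgax (2.11 and 2.23) were called as higher in TAU VEH and TAU MOL. Their levels were low, with means of 0.21 and 0.40 CPM in WT VEH. After training, Cd63 (0.49) and Ctsl (0.42) were called as higher, lysosomal genes that many cells transcribe. Of 20 general myeloid genes, Ctss (0.51) and Lcp1 (0.46) were among 3 higher and Laptm5 (-0.53) was the 1 lower in TAU VEH, and Cd53 (0.65), Fcgr3 (0.63) and Ctss (0.43) were among 4 higher after training. In the basal comparison and in TAU MOL against TAU VEH edgeR called 0 genes of these lists. At an unadjusted p under 0.05 the basal comparison held 9 of 24 tested disease-associated genes and 8 of 20 general myeloid genes, against 803 of all 16324 genes.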

How the data were processed

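Poly-A RNA of the dorsal hippocampus was sequenced from unstranded libraries as single reads. Per the labels and the methods, the authors aligned reads to mm9 with TopHat2 2.0.10 and Bowtie2 2.1.0 and counted uniquely aligned reads per Ensembl gene with HTSeq 0.5.4p3. The deposited tables hold raw counts and a normalized signal per library, and the counts were used here. The deposited signal is the same counts divided by a size factor of each library, set by the authors in each table separately, and was not used. The authors' columns of fold changes and p-values were not used. The learning table held 138 lines without values.

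Counts were scaled by the trimmed mean of M values, filtered with filterByExpr, and tested with edgeR 4.0.16 (R 4.3.3, quasi-likelihood, Benjamini-Hochberg over all genes tested), the 5 basal libraries in one model and the 9 learning libraries in another. The fits were also run on simulated counts, without the TAU MOL comparisons. The simulated counts held no GC trend and no choroid plexus difference, so this check does not bear on either. DESeq2 1.42.0, other scalings and filters, correction for GC content and length (loess, span 0.3), a choroid plexus covariate and leaving out each library were alternatives. Log2 CPM used a prior count of 1. Members were matched by symbol, and exon lengths, GC content and starts were taken from GENCODE M1 on mm9. The members and lists were chosen with earlier results of these data known. Genes of other lists were named where called and averaging 100 or more normalized counts, at most 3 per list and comparison by absolute log2 fold change. The ligands were named besides, and so were Clec7a and Itgax, which averaged 26.3 and 43.6 normalized counts. In the marker checks the named markers are those at 0. Depth was 24693713 to 52180305 counts per library.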

Additional observations from a re-analysis of the deposited data

Results flagged for a closer look

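P2ry13 lay on opposite sides of its control group in the 2 experiments. Both basal THY-Tau22 libraries (15.4 and 14.9 CPM) were above all basal WT libraries (12.8 to 14.3 CPM), at a log2 fold change of 0.17, whereas both TAU VEH libraries (7.17 and 7.89 CPM) were below both WT VEH libraries (8.39 and 8.26 CPM), at -0.15. The difference between the experiments was not tested, since the tables were scaled separately, and neither value passed edgeR's test (adjusted p = 0.90 and 0.618). Of the 16216 genes tested in both tables, 1.33% showed this pattern and 1.26% the opposite one.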

How the results depend on the processing

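Pairing by the replicate numbers shared between groups was checked by correlating the departures of same-numbered libraries from their group means, which gave r from -0.16 to 0.24. Not every pair was over 0.1, so the numbers were not taken as pairs, although in groups of 2 the departures mirror each other and the check is weak. With the replicate number as a block, 3 members were called in WT VEH against WT VEH_HC (P2ry12, Gpr34 and Tmem119) in place of 1, and no other count of members called changed; over all genes the block gave 3000 calls in place of 1413 there and 37 in place of 4 in the basal comparison.

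The count of members called stayed at 0 for basal THY-Tau22 against basal WT and for TAU MOL against TAU VEH under all alternatives run. For TAU VEH and for TAU MOL against WT VEH it went from 1 to 0 with library size alone, with correction for GC content and length and with a choroid plexus covariate, and was 0 to 1 when a library was left out. For WT VEH against WT VEH_HC it was 3 with DESeq2, with library size alone and without a filter on low counts, 0 with the choroid plexus covariate and in the fit of the 2 groups alone, and 0 to 3 when a library was left out. The counts over all genes moved as well. For WT VEH against WT VEH_HC, 1413 genes were called as reported, 1845 with DESeq2, 1712 with library size alone, 2686 without a filter on low counts, 744 after correction for GC content and length, 310 in the fit of the 2 groups alone and 0 with the choroid plexus covariate. For TAU VEH against WT VEH 2423 became 506 after that correction and 0 with the covariate. For TAU MOL against WT VEH 947 became 21 and 2, 1590 without a filter and 1490 with the 2 groups alone. For TAU MOL against TAU VEH 0 became 54 with DESeq2, 233 without a filter and 60 with the 2 groups alone. In the basal comparison 4 became 41 with DESeq2, 125 without a filter, 12 after the correction and 2 with the covariate. Library size alone turned 608 higher and 1815 lower genes in TAU VEH into 2578 and 1020, 103 and 844 in TAU MOL into 757 and 326, and 900 and 513 after training into 1278 and 434.

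Some members changed sign under some alternatives, among them P2ry12 in WT VEH against WT VEH_HC, which was called at 0.53 as reported. Their log2 fold changes with the choroid plexus covariate, whose score does not overlap between WT VEH and any other learning group, were -0.12 for P2ry12, 0.076 for Tmem119, -0.031 for Gpr34, -0.054 for Siglech and 0.0050 for Sall1 in basal THY-Tau22 against basal WT. In TAU VEH against WT VEH they were 0.68 for P2ry12, 0.49 for P2ry13, -0.042 for Cx3cr1, 0.99 for Gpr34 and 0.081 for Sall1. In TAU MOL against WT VEH they were 0.27 for P2ry12, 0.087 for P2ry13, -0.011 for Cx3cr1, 0.54 for Gpr34, 0.18 for Siglech and 0.014 for Sall1. In TAU MOL against TAU VEH they were 0.031 for Cx3cr1, -0.45 for Gpr34, -0.067 for Sall1 and -0.11 for Aif1. In WT VEH against WT VEH_HC they were -0.57 for P2ry12, -0.64 for P2ry13, 0.032 for Cx3cr1, 0.084 for Csf1r, -0.87 for Gpr34, -0.26 for Siglech, -0.33 for Sall1 and -0.49 for Aif1. With library size alone they were 0.043 for P2ry12 and 0.040 for Gpr34 in TAU VEH against WT VEH, 0.12 for Gpr34, 0.12 for Siglech and 0.0033 for Sall1 in TAU MOL against WT VEH and -0.016 for Csf1r in TAU MOL against TAU VEH. After correction for GC content and length they were -0.041 for P2ry12 in basal THY-Tau22 against basal WT, 0.0083 for P2ry12 and -0.028 for Csf1r in TAU MOL against TAU VEH and 0.052 for Csf1r in WT VEH against WT VEH_HC. With DESeq2 they were 0.0053 for Gpr34 and 0.0056 for Siglech in TAU MOL against WT VEH. With DESeq2 size factors in edgeR they were 0.0061 for Gpr34 and 0.0067 for Siglech in TAU MOL against WT VEH. With the 2 groups alone they were 0.0040 for Gpr34 and 0.0050 for Siglech in TAU MOL against WT VEH.

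Left-out libraries turned the sign of members that were not called, over these ranges of the log2 fold change: in basal THY-Tau22 against basal WT, P2ry12 -0.10 to 0.19, Tmem119 -0.44 to 0.098, Gpr34 -0.021 to 0.46 and Siglech -0.047 to 0.20. In TAU VEH against WT VEH, P2ry12 -0.21 to 0.021, Gpr34 -0.27 to 0.025, Cx3cr1 -0.059 to 0.17 and Aif1 -0.071 to 0.28. In TAU MOL against WT VEH, P2ry12 -0.23 to 0.0057, Gpr34 -0.12 to 0.13, Siglech -0.057 to 0.060, Cx3cr1 -0.065 to 0.14 and Csf1r -0.059 to 0.23. In TAU MOL against TAU VEH, P2ry12 -0.12 to 0.083, Csf1r -0.14 to 0.15, Aif1 -0.051 to 0.30, Tmem119 -0.11 to 0.050, Cx3cr1 -0.13 to 0.099, Gpr34 -0.025 to 0.27, Sall1 -0.0039 to 0.13 and P2ry13 -0.19 to 0.023. In WT VEH against WT VEH_HC, Csf1r -0.089 to 0.031 and Sall1 -0.052 to 0.13. In these cases the cause was not tested. Precision is limited by 2 or 3 libraries a group and, for members with few counts such as Aif1, by counting error.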

Other observations

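The basal and learning libraries differed in the level of some members more than any groups within a table did. Gpr34 measured 8.75 to 13.2 CPM in the 5 basal libraries and 3.48 to 7.18 CPM in the 9 learning libraries, P2ry13 12.8 to 15.4 CPM and 5.62 to 8.39 CPM, and Aif1 5.40 to 7.58 CPM and 2.48 to 4.26 CPM, without overlap. Csf1r measured 132 to 159 CPM and 131 to 160.0 CPM, and Sall1 24.2 to 29.6 CPM and 29.4 to 36.7 CPM. The tables were scaled separately and the experiments shared no library, so these levels are given side by side without a test.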
